A study of Homo sapiens with 12 samples.

Results

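A group of 10 genes of the acute-phase response, the complement system and epithelial calprotectin was described in KYSE150, a long-established cell line from a human squamous carcinoma of the esophagus. They were SAA1, SAA2, LRG1, CFB, C3, C1S, C1R, LCN2, S100A9 and S100A8, matched by symbol, and made up 10 of the 24302 features counted. They were chosen by their known roles together with their differences between these same libraries, so their fold changes, and the calls made for them in a fit over all genes, describe these libraries and are no independent test. The lists of related genes described further below were also chosen with earlier results of these data known, so the same limit holds for them. The cells carried 1 of 4 constructs with 3 libraries each. These were GFP-tagged TFAP2β of normal sequence (WT), its altered forms GFP-TFAP2β-Mut_IDR3 (Mut_IDR3) and GFP-TFAP2β-ΔIDR3 (written dIDR3, where Δ is the usual sign of a deletion), and GFP by itself, so that every group shared the tag. TFAP2β, made from the gene TFAP2B, is an AP-2 transcription factor, and IDR stands for intrinsically disordered region, a stretch of protein with no fixed fold. The series describes both altered forms as deficient in liquid-liquid phase separation and asks which genes lie downstream of the factor. The promoter of the constructs, whether cells were pooled or clonal, and whether replicates were separate cultures are not stated in the labels, so the spread between libraries may be technical.

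The acute-phase response is the rapid change in plasma proteins during inflammation, driven in liver mainly by IL-6, STAT3, C/EBP factors and NF-kB, and many of its genes are also used by epithelia. Complement is a cascade of plasma proteins in which C1R and C1S are the proteases of the classical pathway, C3 is the central component that all pathways cleave, and CFB supplies the protease of the alternative pathway convertase. S100A8 and S100A9 form calprotectin, which binds calcium and metal ions and is abundant in neutrophils and in squamous epithelia.

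The libraries held 30.7 M to 43.5 M counts. TFAP2B itself read 232 to 323 CPM (counts scaled to a common library size) in WT, 687 to 732 CPM in Mut_IDR3 and 632 to 742 CPM in dIDR3, against 0 to 0.279 CPM in GFP libraries. Both altered forms thus came with more TFAP2B RNA than WT, and differences between them and WT cannot be told apart from this difference in amount. All 10 squamous markers examined, such as KRT5 and TP63, were present, with summed levels of 7220 to 8300 CPM in WT, 6050 to 6270 CPM in Mut_IDR3, 4910 to 5190 CPM in dIDR3 and 6000 to 6220 CPM in GFP. Of 10 hepatocyte markers, ALB, TTR, CYP3A4 and APOH had 0 counts in every library, and the 10 summed to between 0.0998 and 0.73 CPM. Of 11 myeloid markers, PTPRC, CSF3R, MPO, FCGR3B, TYROBP and SPI1 had 0 counts in every library. The myeloid sum, mostly ITGB2, was 7.67 to 9.73 CPM in WT, 7.93 to 9.41 CPM in Mut_IDR3, 7.5 to 8.68 CPM in dIDR3 and 5.79 to 7.49 CPM in GFP. Of 9 fibroblast markers, FAP and THY1 were at 0, and the sum, mostly COL1A1, was 5.34 to 6.56 CPM in WT, 3.75 to 4.47 CPM in Mut_IDR3, 4.27 to 5.35 CPM in dIDR3 and 2.61 to 3.68 CPM in GFP. The squamous sum was higher in WT than in any other library, but its markers did not move together. KRT17 averaged 2360 CPM in WT and 775 CPM in GFP, and KRT14 806 and 227 CPM. SFN, KRT6A, PKP1 and PERP were also higher in WT than in GFP. Lower in WT were KRT5 (2900 against 3420 CPM), TP63 (126 against 162), KRT15 (38.2 against 465) and DSG3 (42.6 against 58.6). The myeloid and fibroblast sums were higher in every WT than in every GFP library. The part of these sums in the results below was not tested. In bulk RNA, fewer cells that express a gene and less RNA per cell cannot be told apart.

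Promoter letters are shown for 3 genes with unlike patterns across the groups: CFB, whose counts were nearly all in WT, LRG1, which was low in WT, and LCN2, which differed little. RefSeq promoter windows (GRCh38.p14) were matched for 6 of the 10 genes, LRG1, CFB, LCN2, S100A8, S100A9 and C1R, and not for SAA1, SAA2, C3 and C1S. The 250 bases before each start were searched on both strands for the letters of an AP-2 motif (GCCNNNGGC), an NF-kB motif (GGG, any 2 bases, TTTCC), a C/EBP motif (TTGCNNAA), a STAT motif (TTCNNNGAA), an AP-1 motif (TGANTCA) and an interferon response motif, ISRE (GAAA, any 2 bases, GAAA). No 2 of the matches printed below overlap. Capitals mark the matches, and each window is printed in the direction of the gene.
CFB, plus strand, chr6:31945845-31946094: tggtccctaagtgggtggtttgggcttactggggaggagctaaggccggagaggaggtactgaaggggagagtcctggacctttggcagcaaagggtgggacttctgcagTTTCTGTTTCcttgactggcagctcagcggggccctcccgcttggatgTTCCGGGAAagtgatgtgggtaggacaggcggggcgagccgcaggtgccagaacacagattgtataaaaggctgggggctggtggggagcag
LRG1, minus strand, chr19:4540037-4540286: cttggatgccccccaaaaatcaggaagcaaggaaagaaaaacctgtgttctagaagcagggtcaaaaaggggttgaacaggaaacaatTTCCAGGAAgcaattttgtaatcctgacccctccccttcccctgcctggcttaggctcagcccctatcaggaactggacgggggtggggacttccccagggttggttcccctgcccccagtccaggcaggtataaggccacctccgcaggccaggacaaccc
LCN2, plus strand, chr9:128149203-128149452: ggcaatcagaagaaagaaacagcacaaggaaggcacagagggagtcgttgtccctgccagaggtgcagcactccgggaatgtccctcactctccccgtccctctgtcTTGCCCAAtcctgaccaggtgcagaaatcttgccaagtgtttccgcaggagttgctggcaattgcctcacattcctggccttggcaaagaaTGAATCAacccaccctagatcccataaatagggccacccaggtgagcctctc

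The CFB window held the ISRE letters from -140 to -131 and the STAT letters from -92 to -84, counted from the start. The LRG1 window held the STAT letters from -162 to -154. The LCN2 window held the C/EBP letters from -143 to -136 and the AP-1 letters from -52 to -46. The 6 genes had 9 windows, 3 of S100A8, 2 of C1R and 1 of each other gene, and some windows of a gene overlap. STAT letters were found in 3 of the 9, those of LRG1 and CFB and the second of C1R, and in 6.57% of all 35116 promoter windows. C/EBP letters were found in 3, those of LCN2 and both of C1R, and in 9.05% of all windows. AP-1 letters were in 1, that of LCN2, and in 6.57% of all windows, and ISRE letters in 1, that of CFB, and in 3.02% of all windows. AP-2 letters, present in 19.8% of all windows, and NF-kB letters, present in 1.73%, were in 0 of the 9. These matches describe the letters in the windows only. Other forms of each motif were not searched for, so a count of 0 does not mean that sites of that factor are absent.

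In WT against GFP, 4 of the 10 genes were higher (SAA1, SAA2, CFB and C3), 3 were lower (LRG1, C1S and C1R), LCN2 and S100A9 were not called, and S100A8 had too few counts to enter the fit. A gene was called at an adjusted p under 0.05 in edgeR's quasi-likelihood test, fitted to the 14792 features that passed a filter on low counts, with Benjamini-Hochberg adjustment over all of them. Of all tested features, 27.7% were called higher and 27.1% lower in WT, and since the genes were selected on these contrasts, nothing is read from their counts. Their median log2 fold change was -0.10 over the 9 tested, against -0.01 over all features.

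SAA1 and SAA2 encode serum amyloid A, a lipoprotein-bound acute-phase protein made by liver and by inflamed epithelia. Both were highest in WT, lower in GFP, lower again in Mut_IDR3 and lowest in dIDR3, and the libraries of no 2 groups overlapped. SAA1 (ENSG00000173432, GRCh38 chromosome 11, 18266174 to 18269977, plus strand) had 19.8, 16.5 and 14.7 CPM in WT libraries and 3.66, 2.45 and 2.81 CPM in Mut_IDR3 libraries. It had 1.07, 0.416 and 0.823 CPM in dIDR3 libraries, against 5.56, 8.04 and 5.99 CPM in GFP libraries. The log2 fold change was 1.38 (SE 0.23) in WT against GFP, -1.14 (SE 0.24) in Mut_IDR3 against GFP and -3.07 (SE 0.27) in dIDR3 against GFP. Against WT, it was -2.52 (SE 0.24) in Mut_IDR3 and -4.46 (SE 0.28) in dIDR3, so dIDR3 held 0.0456 times the WT level.

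SAA2 (ENSG00000134339, chromosome 11, 18239223 to 18248643, minus strand) had 6.28, 4.41 and 4.76 CPM in WT and 0.804, 0.756 and 0.487 CPM in Mut_IDR3. It had 0.324, 0.208 and 0.218 CPM in dIDR3, from 30 counts in all, against 2.58, 1.52 and 2.08 CPM in GFP. The order of the groups was that of SAA1. Its log2 fold change was 1.32 (SE 0.27) in WT, -1.60 (SE 0.29) in Mut_IDR3 and -3.03 (SE 0.33) in dIDR3, each against GFP, and -2.92 (SE 0.30) in Mut_IDR3 and -4.35 (SE 0.33) in dIDR3, each against WT. The 2 genes lie on opposite strands with 17530 bases between them, and their longest open reading frames have the same letter at 358 of 369 positions (97%). Reads that fit either copy may have been assigned to one or the other by the authors' counting, so the split between SAA1 and SAA2 is uncertain; the count ratio of SAA1 to SAA2 ranged from 2 to 5.76 over the 12 libraries. SAA2 also overlaps the readthrough gene SAA2-SAA4 by 9413 bases on the same strand, and that feature had 12, 19 and 4 counts in WT, 0 in every Mut_IDR3 and dIDR3 library, and 6, 15 and 0 in GFP.

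**Figure D1:**
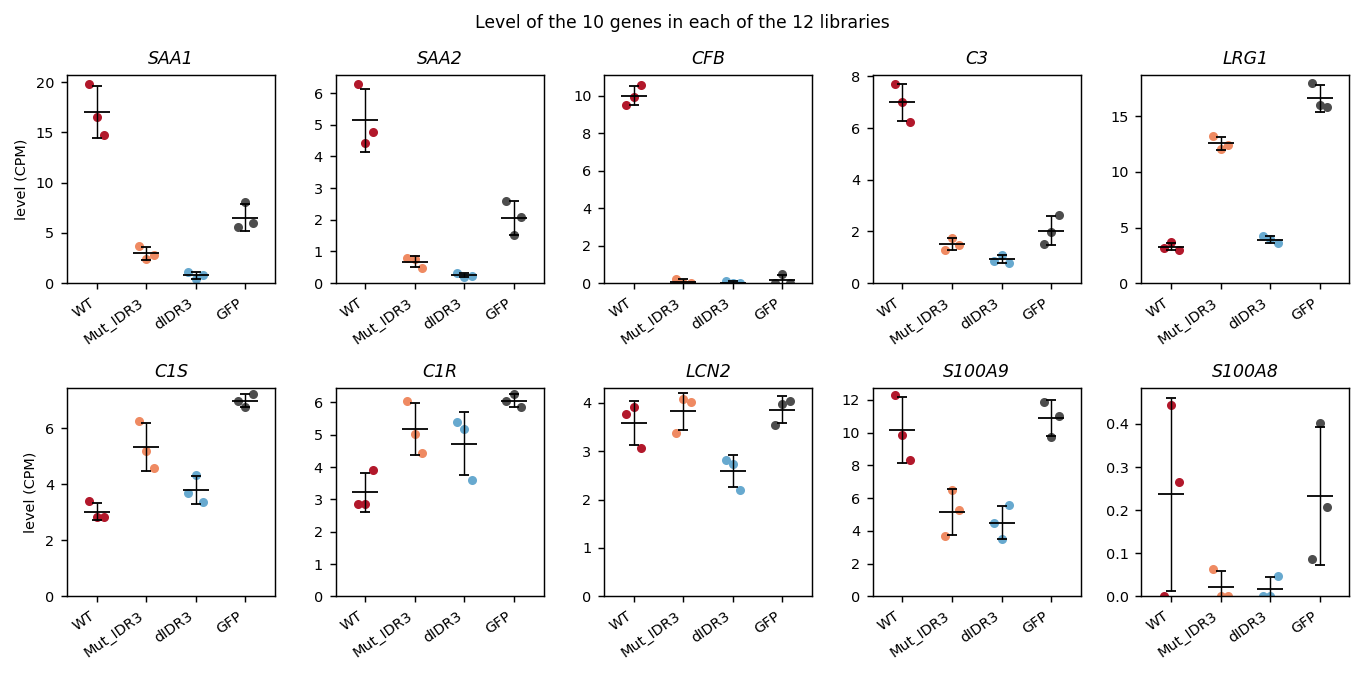
Level of each gene in CPM (vertical axis, from 0, scaled per gene) in the 12 libraries of WT, Mut_IDR3, dIDR3 and GFP, with bars for the mean ± SD of 3 libraries. SAA1, SAA2, CFB and C3 are highest in WT, LRG1, C1S and C1R are lowest in WT, and S100A9 is low in both altered forms.

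CFB, complement factor B, was the member with the widest gap between WT and the other groups. CFB (ENSG00000243649, chromosome 6, 31945650 to 31952084, plus strand) had 346, 335 and 437 counts in WT libraries, 7, 0 and 0 in Mut_IDR3, 4, 0 and 0 in dIDR3, and 0, 16 and 0 in GFP. The WT mean was 10.0 ± 0.516 CPM (SD, n = 3), and outside WT only 3 of 9 libraries held any read. The depth-scaled ratio was 68.9 for WT over GFP (95% interval 42.3 to 121), 161 for WT over Mut_IDR3 (78 to 402) and 301 for WT over dIDR3 (117 to 1110), where the intervals cover counting error only. All reads of each of these low groups came from 1 library. Left out, the same ratios became at least 260-fold without GFP replicate 2, at least 272-fold without Mut_IDR3 replicate 1 and at least 267-fold without dIDR3 replicate 1, against a floor of 3 counts over the group. CFB entered the fit only through its WT libraries. With DESeq2 it was not called in WT against GFP, with a log2 fold change of 5.94 (SE 2.78). Its upstream neighbour C2, the classical-pathway counterpart of CFB, overlaps it by 23 bases on the same strand and was not called in any of the 6 comparisons.

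C3 (ENSG00000125730, chromosome 19, 6677704 to 6730562, minus strand) had 7.71, 7.01 and 6.25 CPM in WT and 1.29, 1.75 and 1.48 CPM in Mut_IDR3. It had 0.873, 1.09 and 0.798 CPM in dIDR3, against 1.51, 1.96 and 2.63 CPM in GFP. All WT libraries were above all others, and the Mut_IDR3 and GFP libraries overlapped. The log2 fold change was 1.78 (SE 0.23) in WT, -0.43 (SE 0.24) in Mut_IDR3 and -1.15 (SE 0.24) in dIDR3, each against GFP. Relative to WT, C3 was lower by a log2 fold change of -2.21 (SE 0.23) in Mut_IDR3 and -2.92 (SE 0.24) in dIDR3.

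LRG1, C1S and C1R ran the other way, with their lowest levels in WT. LRG1, leucine-rich alpha-2-glycoprotein, is a secreted acute-phase protein that modulates TGF-beta signalling in endothelium. LRG1 (ENSG00000171236, chromosome 19, 4536409 to 4540474, minus strand) had 3.2, 3.67 and 2.99 CPM in WT and 13.2, 12.1 and 12.4 CPM in Mut_IDR3. It had 4.22, 3.95 and 3.58 CPM in dIDR3, against 18, 16 and 15.8 CPM in GFP. The altered forms parted here, since dIDR3 libraries overlapped those of WT while Mut_IDR3 libraries lay close below those of GFP. Against GFP, the log2 fold change was -2.34 (SE 0.12) in WT, -0.40 (SE 0.12) in Mut_IDR3 and -2.08 (SE 0.12) in dIDR3. Against WT it was 1.94 (SE 0.12) in Mut_IDR3 and 0.25 (SE 0.13) in dIDR3, and between the altered forms Mut_IDR3 was higher by 1.68 (SE 0.12). The small difference of Mut_IDR3 from GFP lost its call without GFP replicate 1, Mut_IDR3 replicate 2 or Mut_IDR3 replicate 3, at log2 fold changes of -0.35, -0.38 and -0.39. The difference of dIDR3 from WT gained a call, at 0.45, after a trend of counts with GC content was taken out, and at 0.34 without WT replicate 2.

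C1S (ENSG00000182326, chromosome 12, 6988259 to 7071032, plus strand) had 3.39, 2.84 and 2.85 CPM in WT and 6.27, 5.19 and 4.57 CPM in Mut_IDR3. It had 3.69, 4.34 and 3.36 CPM in dIDR3, against 6.98, 6.74 and 7.21 CPM in GFP. The order was WT, dIDR3, Mut_IDR3 and GFP, with WT and dIDR3 libraries overlapping. The log2 fold change was -1.21 (SE 0.17) in WT, -0.39 (SE 0.16) in Mut_IDR3 and -0.88 (SE 0.16) in dIDR3 against GFP, and 0.82 (SE 0.17) in Mut_IDR3 and 0.33 (SE 0.17) in dIDR3 against WT. The neighbouring protease gene C1R (ENSG00000159403, chromosome 12, 7080199 to 7092607, minus strand), with 9166 bases between the genes, had 2.86, 2.87 and 3.91 CPM in WT and 6.04, 5.01 and 4.45 CPM in Mut_IDR3. It had 5.39, 5.17 and 3.6 CPM in dIDR3, against 6.05, 6.27 and 5.85 CPM in GFP. WT libraries were below all GFP libraries, and the 2 altered forms overlapped each other. For C1R the log2 fold change was -0.91 (SE 0.19) in WT, -0.23 (SE 0.19) in Mut_IDR3 and -0.36 (SE 0.19) in dIDR3 against GFP, and 0.68 (SE 0.19) in Mut_IDR3 and 0.55 (SE 0.19) in dIDR3 against WT. WT and dIDR3 libraries of C1R overlapped, and the call of dIDR3 against WT was lost without WT replicate 1 or 2 or dIDR3 replicate 1 or 2, at log2 fold changes of 0.47, 0.48, 0.42 and 0.46, and at 0.53 in a fit of the 2 groups alone. The call of Mut_IDR3 against WT was lost without Mut_IDR3 replicate 1, at 0.54. C1R overlaps its relative C1RL by 3021 bases on the same strand, and C1RL was lower in WT too (described below).

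LCN2, lipocalin 2, is a secreted protein that starves bacteria of iron by binding their siderophores, and its level varied least among the tested members. LCN2 (ENSG00000148346, chromosome 9, 128149071 to 128153455, plus strand) had 3.77, 3.91 and 3.07 CPM in WT and 3.38, 4.07 and 4.01 CPM in Mut_IDR3. It had 2.82, 2.73 and 2.2 CPM in dIDR3, against 3.53, 3.97 and 4.04 CPM in GFP. Only the dIDR3 libraries lay below all others. The log2 fold change was -0.11 (SE 0.18) in WT, -0.01 (SE 0.18) in Mut_IDR3 and -0.58 (SE 0.18) in dIDR3 against GFP, and 0.10 (SE 0.18) in Mut_IDR3 and -0.47 (SE 0.18) in dIDR3 against WT. The call in dIDR3 against WT was lost with no filter (-0.49), with limma-voom (-0.46), in a fit of the 2 groups alone (-0.49), with the replicate number in the model (-0.47) and after removal of the GC trend (-0.26). It was also lost without WT replicate 1, WT replicate 2 or dIDR3 replicate 3 (-0.43, -0.41 and -0.39). The call in dIDR3 against GFP was lost without GFP replicate 2, GFP replicate 3 or dIDR3 replicate 3, at -0.57, -0.56 and -0.49.

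S100A9 separated the altered forms from both WT and GFP. S100A9 (ENSG00000163220, chromosome 1, 153357854 to 153361027, plus strand) had 12.3, 9.89 and 8.33 CPM in WT and 3.7, 6.52 and 5.29 CPM in Mut_IDR3. It had 4.47, 3.51 and 5.56 CPM in dIDR3, against 11.9, 9.72 and 11 CPM in GFP. WT and GFP libraries overlapped, as did those of the 2 altered forms, and every WT and GFP library lay above every library of the altered forms. Its log2 fold change was -0.10 (SE 0.21) in WT, -1.07 (SE 0.21) in Mut_IDR3 and -1.27 (SE 0.21) in dIDR3 against GFP, and -0.97 (SE 0.21) in Mut_IDR3 and -1.17 (SE 0.21) in dIDR3 against WT. S100A8 (ENSG00000143546, chromosome 1, 153390032 to 153391188, minus strand), its partner in calprotectin, lies 29004 bases away and was near the limit of detection. It had 0, 15 and 11 counts in WT, 2, 0 and 0 in Mut_IDR3, 0, 0 and 2 in dIDR3, and 3, 13 and 9 in GFP. The ratio of summed S100A8 levels was 13.1 for WT over Mut_IDR3 (95% interval 3.29 to 114) and 14 for WT over dIDR3 (3.5 to 122), by counting error only. It was 12.8 for GFP over Mut_IDR3 (3.19 to 111) and 13.6 for GFP over dIDR3 (3.4 to 119). The lowest GFP library held 3 counts and the highest library of each altered form held 2, so the gap between libraries was at the limit of detection. The WT library at 0 overlapped the libraries of the altered forms.

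**Figure D2:**
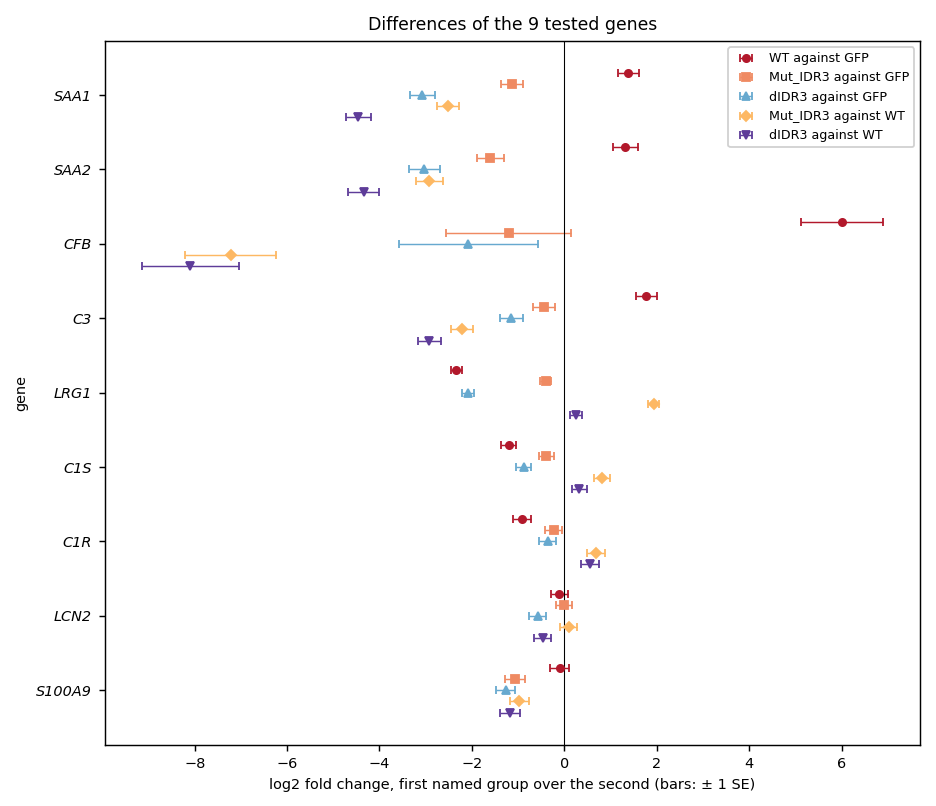
Log2 fold change (horizontal axis, first named group over the second, with 1 SE to either side) of the 9 tested genes in 5 comparisons. SAA1, SAA2, CFB and C3 lie right of 0 in WT against GFP and left of 0 in both altered forms against WT, and S100A9 lies near 0 only in WT against GFP.

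Relative to GFP, none of the 9 tested genes was called higher in either altered form. In Mut_IDR3, 4 were called lower (SAA1, SAA2, LRG1 and S100A9) and 0 higher, beside 9.85% lower and 11.2% higher of all tested features. With limma-voom, C1S was called lower in Mut_IDR3 as well, at -0.42. In dIDR3, 7 were called lower (SAA1, SAA2, LRG1, C3, LCN2, S100A9 and C1S) and 0 higher, beside 13.4% lower and 15.6% higher of all features. The median log2 fold change of the 9 was -0.43 in Mut_IDR3 and -1.27 in dIDR3, each against GFP, where all features had medians of -0.005 and -0.016. The comparisons with GFP share the same 3 control libraries.

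Relative to WT, Mut_IDR3 had 3 genes called higher (LRG1, C1S and C1R) and 5 lower (SAA1, SAA2, CFB, C3 and S100A9), beside 23.2% higher and 20.9% lower of all features. Likewise dIDR3 had 1 called higher (C1R) and 6 lower (SAA1, SAA2, CFB, C3, LCN2 and S100A9), beside 27.2% higher and 25% lower of all features. SAA1, SAA2, CFB and C3 were called higher in WT against GFP and lower in both altered forms against WT, which 16.1% of all features were too. C1R was called lower in WT and higher in both altered forms, which 17.2% of all features were. These comparisons share the WT libraries.

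Between the altered forms, SAA1, SAA2 and LRG1 were called higher in Mut_IDR3 than in dIDR3 and 0 were lower, beside 5.54% higher and 5.24% lower of all features. The log2 fold change was 1.93 (SE 0.28) for SAA1 and 1.43 (SE 0.34) for SAA2. The SAA2 call was lost without Mut_IDR3 replicate 1 or 2 or dIDR3 replicate 2 or 3, at 1.31, 1.34, 1.32 and 1.34, and at 1.37 with limma-voom and 1.44 in a fit of the 2 groups alone. The share of higher among all calls in this comparison was 51.4%, and 65.3% with upper-quartile scaling. All 9 tested genes had a positive value, with a median of 0.71, against -0.01 over all features. C3 (0.71, SE 0.25), LCN2 (0.57, SE 0.18) and C1S (0.49, SE 0.16) were not called, though their libraries did not overlap between the groups. How many of all features had a positive value or no overlap was not counted, so nothing is read from these members. LCN2 was called with upper-quartile scaling (0.59), with DESeq2 (0.58) and without WT replicate 3 (0.56).

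Levels of different genes were compared per length, as TPM (counts per base of the longest transcript of each gene, scaled to the same total in every library). SAA1 was the most abundant of the 10 in WT, at 54.1 ± 8.29 TPM, and S100A9 was the most abundant in GFP, at 41.4 ± 4.98 TPM. In the altered forms, S100A9 led with 19.8 ± 5.28 TPM in Mut_IDR3 and 17.8 ± 3.95 TPM in dIDR3, and SAA1 stood at 9.80 ± 2.19 TPM in Mut_IDR3, 2.58 ± 1.06 TPM in dIDR3 and 21.1 ± 3.81 TPM in GFP. LRG1 was at 2.32 ± 0.248 TPM in WT, 9.19 ± 0.573 TPM in Mut_IDR3, 2.94 ± 0.213 TPM in dIDR3 and 12 ± 0.963 TPM in GFP. C1S and C1R stayed between 1.97 and 4.97 TPM in all 4 groups.

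**Figure D3:**
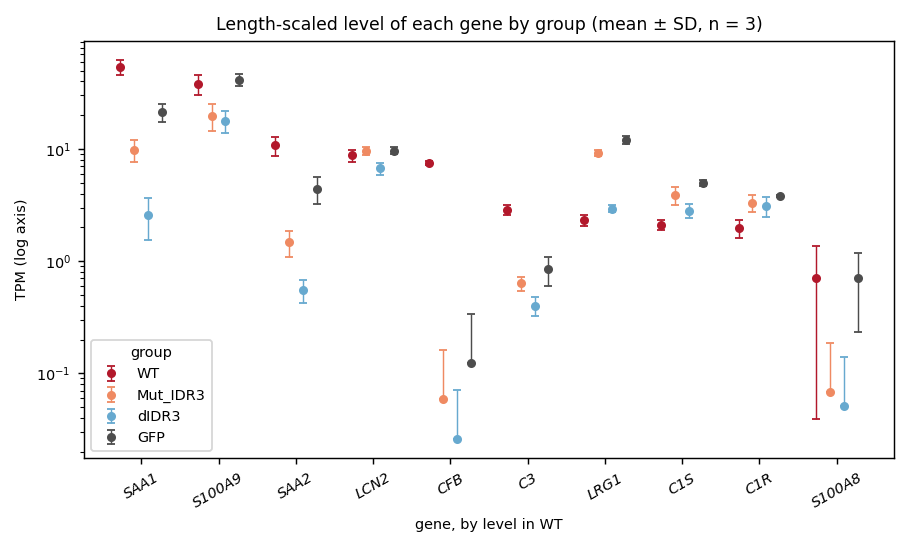
Length-scaled level (TPM, log axis) of the 10 genes in WT, Mut_IDR3, dIDR3 and GFP, as mean ± SD of 3 libraries, ordered by the WT level; the lower bar is left out where the SD exceeds the mean. SAA1 leads in WT at 54.1 TPM, and CFB is in the middle of the order in WT and at or near the bottom in the other groups.

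The genes whose profile over the 12 libraries was most like that of each member were found by the root mean square difference of centred log2 CPM, where 0 is an identical profile. SAA1 was closest to GRHL3 (0.39), SAA2 (0.44) and APOL3 (0.51), and SAA2 was closest to BST2 (0.29), SAA1 (0.44) and GBP4 (0.46). LRG1 was closest to MMP13 (0.24), GGT6 (0.38) and TRPV6 (0.40). No gene came as close to CFB, whose nearest were OASL (1.00), IFNL3 (1.10) and OR52A1 (1.12). C3 was closest to PER1 (0.31), CD24 (0.31) and KRT17 (0.32), and S100A9 to NGFR (0.29), TM4SF1 (0.30) and SIRT4 (0.31). C1S and C1R were 0.25 apart, with ZNF10 (0.14) nearest to C1S and PER3 (0.14) nearest to C1R. LCN2 was 0.13 from ALDH6A1, LETMD1 and TRAPPC6A. A flat profile is close to many others, so small values mean little for LCN2. C1S and C1R were not flat, but many genes were nearer to each of them than the other was. C1R ranked 89 among the genes nearest to C1S, and C1S ranked 675 among those nearest to C1R, so their small difference means little too.

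None of the 8 other complement components tested was called higher in WT against GFP, though 2 had a positive value. Of 25 further component genes, 17 had too few counts to be tested, among them all 3 C1Q chains with 0 counts. In WT against GFP, 4 of the 8 tested fell and 0 rose, where 27.1% of all features fell and 27.7% rose. C1RL, a protease related to C1R, averaged 27.8 ± 1.68 CPM in WT and 39.0 ± 0.218 CPM in GFP (log2 fold change -0.49, SE 0.07, edgeR adjusted p = 3.62e-05). C4A, which is nearly identical to C4B so that their counts are uncertain, had 12, 3 and 14 counts in WT, against 42, 27 and 44 in GFP (-1.99, SE 0.54, edgeR adjusted p = 0.00541). C5, the entry to the membrane attack complex, had 19, 15 and 0 counts in WT, against 41, 48 and 58 in GFP (-2.07, SE 0.68, edgeR adjusted p = 0.018), and this call was lost once the GC trend was removed. Relative to WT, 3 of the 8 rose and 0 fell in Mut_IDR3, and 0 were called in dIDR3. Of all features, 23.2% rose and 20.9% fell in Mut_IDR3 against WT, and 27.2% rose and 25% fell in dIDR3 against WT.

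Among 20 complement regulators and receptors, 7 were tested, and 4 rose and 2 fell in WT against GFP, beside the 27.7% and 27.1% of all features. The genes that fell were CFI and CD46. CFI, factor I, the protease that inactivates C3b, had 0 counts in every WT library, 75, 68 and 98 in Mut_IDR3, 22, 18 and 16 in dIDR3, and 81, 37 and 58 in GFP. Against a floor of 3 counts over the WT group, CFI was at least 59.5-fold lower in WT than in GFP (edgeR adjusted p = 6.86e-07), at least 79.6-fold higher in Mut_IDR3 than in WT and at least 17.4-fold higher in dIDR3 than in WT. CD46, a membrane cofactor of factor I, averaged 54.6 ± 8.35 CPM in WT and 104.1 ± 6.79 CPM in GFP (log2 fold change -0.93, SE 0.10, edgeR adjusted p = 1.14e-06), and the value shrank to -0.29, still called, once the GC trend was removed. The genes that rose were CD55 and CD59, which protect cells from complement at the membrane, CLU (clusterin) and C1QBP. CLU averaged 405 ± 9.35 CPM in WT and 209 ± 5.36 CPM in GFP (0.95, SE 0.05, edgeR adjusted p = 4.16e-10), CD55 had a log2 fold change of 0.48 and CD59 of 0.25. C1QBP averaged 731 ± 49.2 CPM in WT and 571 ± 20.9 CPM in GFP (0.36, SE 0.05, edgeR adjusted p = 5.08e-05). All 6 called genes of this list were called the other way in both altered forms against WT. Of all features, 27.7% rose in WT against GFP, and 16.1% of all features also fell in both altered forms against WT. Likewise 27.1% fell in WT against GFP, and 17.2% of all features also rose in both altered forms. Against WT, CLU had a log2 fold change of -0.66 in Mut_IDR3 and -0.81 in dIDR3, and CD46 of 0.57 in Mut_IDR3 and 0.64 in dIDR3. Without the GC trend, the values of CD46 were 0.19 and 0.16, both still called, and C1QBP lost both of its calls against WT (-0.10 in Mut_IDR3 and -0.12 in dIDR3).

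Other acute-phase genes were nearly silent. Of 21, only SERPINA1, the inhibitor of neutrophil elastase, had enough counts to be tested, and CRP, HP, LBP and HAMP had 0 counts in all libraries. SERPINA1 averaged 2.37 ± 0.534 CPM in WT, 0.681 ± 0.217 CPM in Mut_IDR3, 1.07 ± 0.285 CPM in dIDR3 and 1.44 ± 0.397 CPM in GFP. It fell in Mut_IDR3 against WT (log2 fold change -1.79, SE 0.35, edgeR adjusted p = 0.000742), in dIDR3 against WT (-1.14, SE 0.34, adjusted p = 0.0102) and in Mut_IDR3 against GFP (-1.07, SE 0.35, adjusted p = 0.0423). The value in WT against GFP, 0.72 (SE 0.33), missed the threshold (edgeR adjusted p = 0.0795).

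Several other S100 genes rose in WT, where S100A9 was not called. Of 18, 10 were tested, and 6 rose and 0 fell in WT against GFP, while 6 fell and 0 rose in each altered form against WT. Of all features, 27.7% rose in WT against GFP, and 20.9% fell in Mut_IDR3 and 25% in dIDR3 against WT. S100A11 averaged 817 ± 30.8 CPM in WT and 438 ± 10.8 CPM in GFP (log2 fold change 0.90, SE 0.06, edgeR adjusted p = 7.65e-09). S100A6 averaged 190.9 ± 13 CPM in WT and 95.5 ± 7.14 CPM in GFP (1.00, SE 0.08, edgeR adjusted p = 8.63e-08). Both encode small calcium-binding proteins of the same family as calprotectin. Against GFP, 0 of the 10 were called in Mut_IDR3 and 2 fell in dIDR3, S100A14 (-0.54) and S100A6 (-0.33). Of all features, 9.85% fell in Mut_IDR3 and 13.4% in dIDR3 against GFP. Without the GC trend 2 of the 10 fell in Mut_IDR3 and 4 in dIDR3. In that fit 2234 of all features were called in Mut_IDR3 and 4647 in dIDR3 against GFP, 52.8% and 49.1% of them higher. S100A12, which neutrophils make along with calprotectin, had 0 counts in all libraries. Among 18 epithelial antimicrobial genes only 2 were tested. SLPI, an inhibitor of serine proteases secreted by mucosa, averaged 51.6 ± 1.43 CPM in WT, 23.1 ± 2.10 CPM in Mut_IDR3, 10.6 ± 1.86 CPM in dIDR3 and 23.1 ± 1.14 CPM in GFP. It rose in WT against GFP (log2 fold change 1.16, SE 0.11, edgeR adjusted p = 4.6e-07) and fell in dIDR3 against GFP (-1.12, SE 0.11, adjusted p = 4.81e-06). The other was LTF (lactoferrin), named after its values were seen, with 16, 14 and 13 counts in WT, against 0 in every GFP library, which is at least 14.1-fold higher in WT. The Mut_IDR3 libraries held 2, 0 and 3 counts of LTF and the dIDR3 libraries 0, 2 and 0.

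Genes of the pathways known to drive acute-phase genes were examined next, and no test set these lists against other genes. Of 20 genes of IL-6 family and STAT3 signalling, 18 were tested, and 9 rose and 3 fell in WT against GFP, where 27.7% of all features rose and 27.1% fell. IL6, the main inducer of hepatic acute-phase genes, averaged 23.5 ± 3.10 CPM in WT, 1.86 ± 0.717 CPM in Mut_IDR3, 3.07 ± 0.125 CPM in dIDR3 and 1.39 ± 0.428 CPM in GFP. Its log2 fold change in WT against GFP was 4.10 (SE 0.27, edgeR adjusted p = 1.42e-08). SOCS3, a feedback inhibitor induced by STAT3, averaged 31.4 ± 2.19 CPM in WT and 8 ± 0.760 CPM in GFP (1.98, SE 0.12, edgeR adjusted p = 4.73e-09), and for STAT3 itself the value was 0.74 (SE 0.05, adjusted p = 2.21e-08). The receptor genes IL6R (-1.18), LIFR (-1.04) and IL6ST (-0.80) fell. Without the GC trend LIFR stood at -0.41, still called, and IL6ST, at -0.17, was not. Against WT, 10 of the 18 fell and 2 rose in Mut_IDR3, and 12 fell and 4 rose in dIDR3. Of all features, 20.9% fell and 23.2% rose in Mut_IDR3 against WT, and 25% fell and 27.2% rose in dIDR3 against WT. Without the GC trend, 8 of the 18 fell and 1 rose in Mut_IDR3, and 10 fell and 1 rose in dIDR3. In that fit 6081 of all features were called in Mut_IDR3 and 7248 in dIDR3 against WT, 49.2% and 48.9% of them higher.

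Of 15 genes for C/EBP and NF-kB factors and their regulators, 14 were tested, and 11 rose and 1, REL, fell in WT against GFP. Of all features, 27.7% rose and 27.1% fell there. Without the GC trend, 10 rose and 2 fell, where 7107 of all features were called, 49.7% of them higher. CEBPA was then called lower (-0.45) and IKBKE was no longer called. NFKBIA, the inhibitor that NF-kB induces to limit itself, averaged 85.2 ± 0.662 CPM in WT, 21.3 ± 0.560 CPM in Mut_IDR3, 20.4 ± 1.32 CPM in dIDR3 and 17.9 ± 0.614 CPM in GFP. The log2 fold change of NFKBIA in WT against GFP was 2.25 (SE 0.07, edgeR adjusted p = 6.15e-12), that of RELB was 1.71 (SE 0.10, adjusted p = 6.13e-09) and that of NFKB2 was 1.20 (SE 0.09, adjusted p = 5.15e-08). CEBPB and CEBPD, the C/EBP factors of the acute-phase response, were 0.65 and 0.64 higher in WT on the log2 scale, and each was 0.32 higher without the GC trend. Against WT, 10 of the 14 fell and 2 rose in Mut_IDR3, and 10 fell and 1 rose in dIDR3. Of all features, 20.9% fell and 23.2% rose in Mut_IDR3 against WT, and 25% fell and 27.2% rose in dIDR3 against WT. Without the GC trend, 9 of the 14 fell and 1 rose in Mut_IDR3 against WT. In that comparison 6081 of all features were then called, 49.2% of them higher. The fall of REL in WT measured -1.38 on that scale (SE 0.15, edgeR adjusted p = 2.75e-06), and -0.83 without the GC trend.

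Of 16 genes of the IL-17 and IL-1 receptor pathways, which induce LCN2 and calprotectin in keratinocytes, 15 were tested, and 6 rose and 3 fell in WT against GFP. Of all features, 27.7% rose and 27.1% fell there. With the GC trend removed 5 rose and 5 fell: IL17RA and MYD88 were no longer called, TRAF6 was called higher, and IL17RC and IL17RE were called lower. In that fit 7107 of all features were called, 49.7% of them higher. IL1B averaged 34.5 ± 4.46 CPM in WT, 33.3 ± 3.29 CPM in Mut_IDR3, 33.2 ± 3.58 CPM in dIDR3 and 71.6 ± 4.71 CPM in GFP, and its log2 fold change against GFP was -1.05 in WT, -1.10 in Mut_IDR3 and -1.11 in dIDR3 (edgeR adjusted p = 1.21e-06, 3.22e-05 and 4.15e-06). IL1RN, the receptor antagonist of IL-1, averaged 7.27 ± 1.32 CPM in WT, 1.20 ± 0.358 CPM in Mut_IDR3, 1.83 ± 0.281 CPM in dIDR3 and 6.27 ± 0.942 CPM in GFP. Like S100A9, IL1RN was low in the altered forms and overlapped between WT and GFP libraries. Of 16 receptors for the secreted proteins, 7 were tested, and only BSG, a receptor of S100A9, rose in WT against GFP (log2 fold change 0.71, SE 0.05, edgeR adjusted p = 4.83e-08). Without the GC trend TGFBR1 was called higher too (0.37) and SCARB1 lower (-0.26). AGER, another receptor of this list, was tested and not called in WT against GFP (0.015). TLR4, also described as a calprotectin receptor, and the formyl peptide receptor FPR2, a receptor of SAA1, had 0 counts in all libraries.

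**Figure D4:**
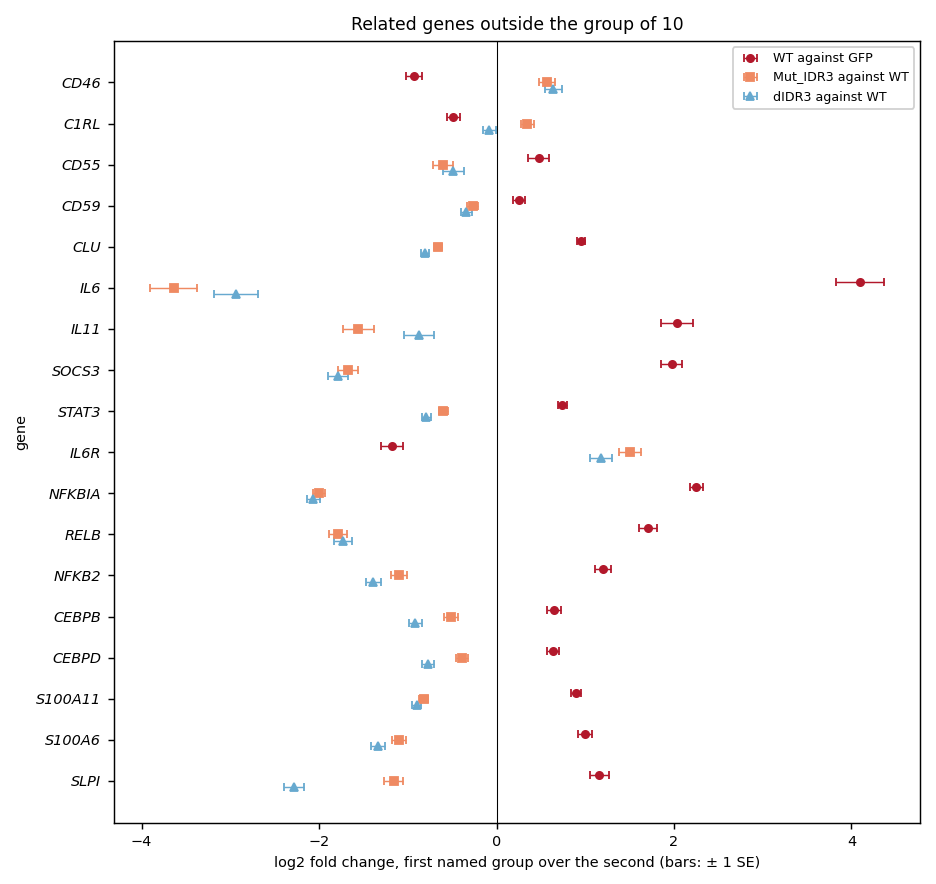
Log2 fold change (horizontal axis, first named group over the second, with 1 SE to either side) of 18 related genes in WT against GFP, Mut_IDR3 against WT and dIDR3 against WT. CD46, C1RL and IL6R lie left of 0 in WT against GFP, the other genes right of 0, and IL6 has the highest value there, 4.10.

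Over the 9 related lists, 82 of 169 genes were tested. Since the lists were chosen with earlier results of these data known, their counts and medians describe these libraries and are no independent test. In WT against GFP 39 rose and 13 fell, with a median log2 fold change of 0.28, against -0.01 over all features, of which 27.7% were called higher and 27.1% lower. Against WT, 40 fell and 11 rose in Mut_IDR3, with a median of -0.27, and 42 fell and 11 rose in dIDR3, with a median of -0.36, where the median of all features was 0.03 in both comparisons. Of all features, 23.2% rose and 20.9% fell in Mut_IDR3 against WT, and 27.2% rose and 25% fell in dIDR3 against WT. Against GFP, 11 of the 82 rose (13.4%) and 9 fell (11%) in Mut_IDR3, near the 11.2% and 9.85% of all features. In dIDR3 against GFP, 9 rose (11%) and 20 fell (24.4%), where 15.6% and 13.4% of all features did. Between the altered forms, 13 were higher and 3 lower in Mut_IDR3 than in dIDR3, where 5.54% and 5.24% of all features were. With the GC trend removed, 38 rose and 15 fell in WT against GFP, and 7 rose and 10 fell in Mut_IDR3 against GFP.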

How the data were processed

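RNA-seq counts of 12 libraries were used as the authors deposited them: whole-number counts per gene, not normalised. Per the submitters' processing notes, the genome was GRCh38/hg38 and the tools included HISAT2, StringTie and Trim Galore; how reads were counted, with which annotation and strand, is not given in the sources used here, so overlapping genes and near-identical copies are uncertain. Per the labels' protocols, libraries were made with a SMARTer mRNA kit from 1 µg of RNA.

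Features were kept by filterByExpr with a minimum count of 10 (14792 of 24302), scaled by TMM and fitted with edgeR 4.0.16 (R 4.3.3) over the 12 libraries, which leaves 8 residual degrees of freedom. P-values were adjusted by Benjamini-Hochberg within each of 6 comparisons. With 3 libraries a side, the smallest exact p is 0.1. CPM used the TMM-scaled library size, and TPM the longest GENCODE transcript on GRCh38. Ratios of counts carry 95% intervals, and a floor of 3 counts stands for a group at 0; both cover counting error only. The log2 CPM values for profiles used a prior count of 2. The code was tested on simulated counts.

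The 10 genes and the related lists were chosen with earlier results of these data known. Related genes were named from up to 4 called genes per list with the lowest adjusted p in WT against GFP, and up to 2 in each other comparison, if the group with more averaged 1 CPM or over. Others named, such as untested genes, C/EBP genes, CD55, CD59, REL and the receptors, were picked as examples. An item of the complement list is not reported here, and the list's counts leave it out. The choices varied were the scaling (median-ratio, upper-quartile), the filter (none, or 1 CPM in at least 3 libraries), the tool (DESeq2 1.42.0, limma-voom with limma 3.58.1), the groups in the fit, the replicate number, a 2-fold minimum, a GC trend removed over 20 bins, and each library in turn.

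Replicates of a group differed by more than sampling noise (chi-square per degree of freedom 8.54 to 37.2), so none was a repeated deposit.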

Additional observations from a re-analysis of the deposited data

How the results depend on the processing

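Over the 9 tested genes and 6 comparisons, 515 of 537 values under other settings, and 618 of 648 with 1 library left out, kept their sign and their side of the threshold. With a minimum of 2-fold, the related genes called numbered 22 in WT against GFP, 3 in Mut_IDR3 against GFP and 8 in dIDR3 against GFP. They numbered 19 in Mut_IDR3 against WT, 20 in dIDR3 against WT and 2 in Mut_IDR3 against dIDR3. Over all features, 1657, 158, 443, 972, 1359 and 132 were called with this minimum, in the same order. The members called in Mut_IDR3 against WT numbered 5. A stricter threshold calls fewer genes by construction. With 1 library left out, related genes called ranged from 10 to 25 in Mut_IDR3 against GFP (20 with all; 13 without GFP replicate 2, and 10 without GFP replicate 3 or Mut_IDR3 replicate 2) and from 10 to 20 in Mut_IDR3 against dIDR3 (16 with all, 10 without dIDR3 replicate 1). The cause was not tested.

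Signs turned in 10 values, none of them called, each with 1 library left out. CFB read 4.36 in Mut_IDR3 against GFP and 3.48 in dIDR3 against GFP without GFP replicate 2, and -3.48 in Mut_IDR3 against dIDR3 without Mut_IDR3 replicate 1; the library left out held all reads of its group. Over all libraries left out, these 3 values ranged from -5.57 to 4.36, from -5.54 to 3.48 and from -3.48 to 4.34. LCN2 in Mut_IDR3 against GFP read 0.001 without GFP replicate 2, 0.019 without GFP replicate 3 and 0.063 without Mut_IDR3 replicate 1, and -0.007 in Mut_IDR3 against WT without WT replicate 3; the ranges were -0.073 to 0.063 and -0.007 to 0.162. S100A9 read 0.027 in WT against GFP without WT replicate 3 and -0.001 in Mut_IDR3 against dIDR3 without Mut_IDR3 replicate 2, and C1R -0.025 in Mut_IDR3 against dIDR3 without dIDR3 replicate 3; the ranges were -0.258 to 0.027, -0.001 to 0.395 and -0.025 to 0.243.

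Same-numbered libraries did not deviate together (correlations -0.068 to 0.076), so the numbers do not pair them. With the replicate block, the members called were 7, 4, 7, 8, 6 and 3 in the order of the 6 comparisons above, and the lost call was LCN2 in dIDR3 against WT (-0.47). Over all features the block gave 7932, 2795, 3984, 6280, 7471 and 1206 calls in that order, against 8118, 3114, 4294, 6519, 7730 and 1594 without it. The depth leaves CFB outside WT, S100A8 and SAA2 in dIDR3 at a few counts per library.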
